A study of Mus musculus with 29 samples.

Results

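The neural tube patterning factors described here are 10 genes taken by name from the count tables: Sox1, Sox2, Pax6, Shh, Nkx2-2, Olig2, Nkx6-1, Dbx1, Irx3 and Nkx1-2. All 10 were found among the 23337 genes counted in each of 29 RNA-seq libraries from mouse embryos at embryonic day 9.0. The embryos were C57BL/6 and carried a Dll1-YFP mark in all 8 groups. MUT and WT (n = 3 each) are whole trunk tissue from which RNA was extracted without culture or sorting; the labels do not say what the MUT embryos carry. DIR and CTRL (n = 4 each) are explanted cells of the Dll1 lineage from the presomitic mesoderm, cultured with (DIR) or without (CTRL) LDN and SAG, which are known as a BMP receptor inhibitor and a Smoothened agonist. The 4 SOM groups hold YFP-positive cells that were sorted by FACS without culture, with n = 3 in SOMA and n = 4 in the other three. SOMA came from the presomitic mesoderm with the newest somite, SOMB from somites 2 to 5, SOMC from somites 6 to 9, and SOMD from somite 10 up to somite 13, 14, 15 or 16 by replicate. The labels do not say what drives YFP or whether a library is 1 embryo or a pool, so p-values measure the spread between these libraries, which may be technical.

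As background, the neural tube is divided into bands of progenitors, each marked by its own set of transcription factors. Sonic hedgehog, secreted by the notochord and the floor plate below and within the ventral tube, induces the ventral factors Nkx2-2, Olig2 and Nkx6-1 and represses more dorsal factors such as Pax6, Irx3 and Dbx1. Sox1 and Sox2 are carried by neural progenitors along most of the tube, and Nkx1-2 marks the zone at the tail end where new spinal cord and new mesoderm are laid down.

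Gene counts per library ran from 11541131 to 44363411. Levels are given as CPM, counts relative to library sizes scaled over all 29 libraries, and comparisons of levels between genes are per kilobase of annotated exon. In the trunk 38.8 to 40.6% of the reads were counted as aligned at more than 1 place, against 15.9 to 25.4% in the sorted and cultured cells. AI646519, which carries PEAT, the long non-coding RNA of the study's title, as a synonym, had 0 counts in each MUT library, against 25, 18 and 61 counts in the WT libraries. Several libraries stand apart in the members and are named beside the results they touch: WT3, SOMB2 and CTRL1. SOMC1 and SOMC4 were nearly the same in their counts, as were SOMD1 and SOMD4, though above sampling noise, and they were counted as separate samples. The sample source field calls the trunk paraxial mesoderm, yet the trunk libraries also held markers of other tissues. The summed level of 6 primitive erythroid genes was 970 to 2283 CPM in WT trunk, against 3.83 to 84.7 CPM in the sorted cells. The summed level of 6 gut endoderm genes was 61.2 to 140 CPM in WT trunk and 6.08 to 15.2 CPM in the sorted cells. In WT trunk this sum was mostly Epcam, Cdh1 and Cldn6, with means of 33.7, 31.2 and 38.8 CPM. Sox17, Foxa3 and Hnf4a averaged 5.95, 1.02 and 0.739 CPM there. Summed over 11 paraxial mesoderm genes, which mark somites and their precursors, WT trunk had 626 to 648 CPM, and the sorted cells had 576 to 933 CPM.

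The promoters of Dbx1 and Nkx1-2 are shown because these are the members that moved in opposite directions along the somite levels and in 1 WT library, as described below. Both lie on the minus strand of chromosome 7 and are given in the direction of the gene from RefSeq's GRCm38.p6 promoter table, without bases inside annotated exons. Capitals mark the 6 letters of the SOX core.
Dbx1, chr7:49636850-49637085: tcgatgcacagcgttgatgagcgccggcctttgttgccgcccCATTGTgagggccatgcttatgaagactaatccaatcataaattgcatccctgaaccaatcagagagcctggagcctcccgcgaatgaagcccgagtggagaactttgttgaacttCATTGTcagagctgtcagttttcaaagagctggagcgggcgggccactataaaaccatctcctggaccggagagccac
Nkx1-2, chr7:132599638-132599887: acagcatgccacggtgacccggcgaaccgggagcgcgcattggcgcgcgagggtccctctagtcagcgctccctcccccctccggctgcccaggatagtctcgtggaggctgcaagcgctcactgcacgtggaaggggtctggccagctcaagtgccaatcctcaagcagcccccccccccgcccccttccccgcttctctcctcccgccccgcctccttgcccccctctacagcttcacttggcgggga
The Dbx1 stretch held the SOX core CATTGT at 2 places, and the Nkx1-2 stretch held none. RefSeq windows were found for 9 of the 10 members, with Shh named only. Over the 250 bases before each RefSeq start, read on both strands, CATTGT was in the windows of Dbx1 and Olig2, and 10.7% of all 32851 windows held it. The Olig2 match did not lie wholly in the 157 bases before the gene as annotated by GENCODE. The windows of Irx3, Nkx2-2 and Nkx6-1, and a window of Pax6, lay inside the annotated gene. The GLI core GACCACCC was in none of the members' windows and in 0.703% of all windows; the homeodomain core TAATTA was in none of the members' windows and in 4.84% of all. A match of letters is a description and shows no binding. No motif overlapped another in the bases printed.

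In whole WT trunk 9 of the 10 members were higher than in the sorted Dll1-lineage cells, and Irx3 was the exception. The same count, 9 higher with Irx3 the exception, was found against the cultured CTRL cells. SOM stands for the 15 sorted libraries, with the 4 SOM groups at equal weight on the log scale. A group with levels near 0 can thus raise the fold change. Dbx1, for example, was 11.2 times higher in WT this way, against 7.47 times by mean CPM. The median of the members' log2 fold changes was 2.94 in WT against SOM, and that of all 15223 genes tested was 0.0018. In WT against CTRL these medians were 3.59 and -0.0637. Of all genes, 33.3% were called higher in WT against SOM and 30.6% in WT against CTRL (adjusted p under 0.05). Both comparisons share the 3 WT libraries, so they are not independent of each other. Trunk and sorted or cultured cells differ in tissue make-up, in handling and in the share of multiply aligned reads, and these cannot be told apart here. In bulk libraries such as these, fewer cells of a type and less RNA per cell cannot be told apart either.

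**Figure D1:**
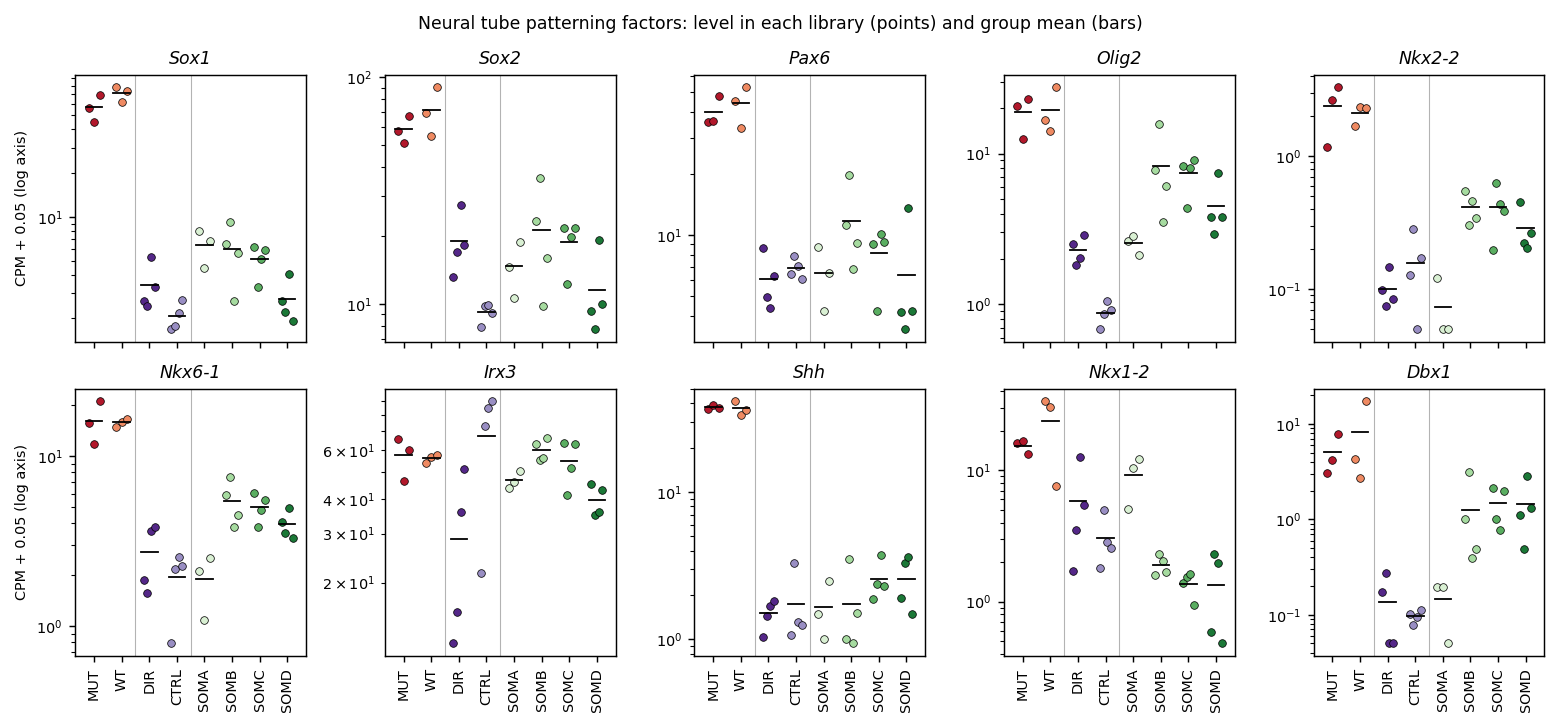
Level of each of the 10 members in all 29 libraries, with a small offset of 0.05 CPM so that 0 can be drawn on the log axis. Points are libraries and bars are group means. Every MUT and WT point lies above every sorted and cultured point in 6 of the 10 panels, all but those of Olig2, Irx3, Nkx1-2 and Dbx1.

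Sox1, Sox2 and Pax6, the general factors of neural progenitors, were each higher in WT trunk with no overlap between groups. Sox1, an HMG-box factor of committed neural progenitors, had 78.6, 61.8 and 73.3 CPM in WT1, WT2 and WT3. In the 15 sorted libraries its lowest, median and highest levels were 1.86, 5.07 and 9.22 CPM, and in CTRL1 to CTRL4 it had 1.63, 1.74, 2.15 and 2.62 CPM. Its mean in the sorted cells was 6.93% of that in WT trunk, and its log2 fold change was 3.90 ± 0.21 (SE; adjusted p = 2.39e-14, edgeR). Sox2, which is also used by pluripotent and neuromesodermal cells, had 69.7, 54.8 and 90.8 CPM in the WT libraries, against 7.67, 15.9 and 36.0 CPM as lowest, median and highest in the sorted ones. Its sorted mean was 23.2% of the WT mean, a log2 fold change of 2.15 ± 0.23 (adjusted p = 1.12e-08). Pax6, a paired-box and homeodomain factor of the middle and dorsal bands, had 45.4, 33.5 and 53.2 CPM in WT trunk and 3.40, 8.70 and 19.6 CPM as lowest, median and highest in the sorted cells. Its log2 fold change was 2.48 ± 0.26 (adjusted p = 8.56e-09). In all 3 genes the lowest WT library was thus above the highest sorted one, SOMB2. In WT against CTRL the log2 fold changes were 5.13 ± 0.33 for Sox1, 2.97 ± 0.33 for Sox2 and 2.69 ± 0.37 for Pax6.

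Shh, the ligand of the ventral pathway, showed the largest log2 fold change of the members between WT trunk and sorted cells. It had 41.5, 33.1 and 35.7 CPM in the WT libraries, against 0.890, 1.87 and 3.70 CPM as lowest, median and highest in the sorted ones. Its sorted mean was 5.77% of the WT mean, and its log2 fold change was 4.17 ± 0.26 (adjusted p = 4.21e-13). No cultured library came near the trunk: Shh had 0.994 to 1.78 CPM in DIR and 1.03 to 3.25 CPM in CTRL. The exons of Shh overlap 9530036O11Rik on the other strand, and the library kit does not mark strand, so reads of the pair cannot be told apart. Of 6 further genes listed as notochord and floor plate, 4 were higher in WT against SOM and 0 lower, with a median log2 fold change of 2.18. Among them Foxa1 differed by 4.65 ± 0.35, Foxa2, a regulator of floor plate and notochord, by 2.98 ± 0.31, and Noto, a notochord factor, by 3.35 ± 0.64. Noto was scarce, and it was lower in WT trunk than in SOMA, with means of 0.667 and 1.21 CPM and no overlap. Its fold change came from SOMB, SOMC and SOMD, with means of 0.0778, 0.0487 and 0 CPM. The 6 listed genes summed to 38.6, 35.3 and 17.8 CPM in WT1 to WT3. The gut endoderm genes summed to 133, 140 and 61.2 CPM there, also lowest in WT3, while Shh was lowest in WT2. Which tissue of the trunk carried Shh and the listed genes was not tested.

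The ventral targets of Shh were also higher in WT trunk than in the sorted cells, with point estimates below that of Shh. Nkx2-2, which marks the band next to the floor plate, was the scarcest member per kilobase in the WT trunk, at 0.715 ± 0.124 CPM per kilobase (SD, n = 3). It had 1.64, 2.29 and 2.24 CPM in the WT libraries, against 0, 0.254 and 0.580 CPM as lowest, median and highest in the sorted ones. Its log2 fold change was 3.46 ± 0.36 (adjusted p = 6.86e-09), on no more than 11 counts in any sorted library. Nkx2-2 shares exon bases with the antisense gene Nkx2-2os. Olig2, the factor of the motor neuron progenitors, had 16.7, 14.1 and 27.7 CPM in WT trunk, and 2.07, 4.32 and 15.6 CPM as lowest, median and highest in the sorted cells. The groups overlapped through SOMB2, which was above WT2, and the log2 fold change was 1.93 ± 0.26 (adjusted p = 4.20e-07). Nkx6-1, a homeodomain factor of the ventral bands, had 14.8, 15.9 and 16.4 CPM in WT trunk, against 1.03, 4.01 and 7.48 CPM as lowest, median and highest in the sorted cells. Its log2 fold change was 2.07 ± 0.24 (adjusted p = 3.50e-08). Against CTRL the log2 fold changes were 4.11 ± 0.51 for Nkx2-2, 4.57 ± 0.40 for Olig2 and 3.07 ± 0.34 for Nkx6-1, with no overlap between groups.

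Dbx1 and Irx3, factors of the intermediate bands, behaved differently from each other. Dbx1 had 4.21, 2.68 and 17.5 CPM in WT1, WT2 and WT3, and 0, 0.951 and 3.09 CPM as lowest, median and highest in the sorted libraries. WT2 lay below SOMB2 and SOMD3, and the log2 fold change was 3.49 ± 0.48 (adjusted p = 6.68e-07). Against CTRL, where Dbx1 had 6 counts in 4 libraries, its log2 fold change was 7.30 ± 0.91. Without WT3, the library with the highest Dbx1, these log2 fold changes were 2.26 against SOM (adjusted p = 7.27e-04) and 6.06 against CTRL (adjusted p = 1.69e-06). Irx3, a homeodomain factor that is also expressed in mesoderm, had 53.8, 56.4 and 57.3 CPM in the WT libraries, against 35.0, 50.4 and 66.3 CPM as lowest, median and highest in the sorted ones. The WT values lay inside the sorted range, and the log2 fold change was 0.17 ± 0.29 (adjusted p = 0.628). In CTRL1 to CTRL4 Irx3 had 21.6, 73.1, 85.0 and 90.0 CPM, with CTRL1 far below the other three libraries, and in WT against CTRL its log2 fold change was -0.27 ± 0.36 (adjusted p = 0.519). Irx3 shares exon bases with the antisense gene Irx3os.

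Nkx1-2, the marker of the tail end, was higher in WT trunk than in the sorted cells as a whole, but least so against SOMA. It had 33.9, 30.3 and 7.51 CPM in WT1, WT2 and WT3, and 0.430, 1.62 and 12.1 CPM as lowest, median and highest in the sorted libraries. WT3 lay below SOMA3 and SOMA4, and the log2 fold change was 3.41 ± 0.37 (adjusted p = 1.35e-08). The WT mean was 2.61 times that of SOMA, 12.9 times that of SOMB, 18.2 times that of SOMC and 18.5 times that of SOMD. Of 9 other neuromesodermal and tail bud genes, 6 were higher and 1 lower in WT against SOM, with a median log2 fold change of 2.40. Most of the higher genes did not follow Nkx1-2 in their means against SOMA alone. By mean CPM, T, Cdx2 and Cdx4 were lower in WT than in SOMA, with T at 15.8 against 51.9 CPM. Cdx2 overlapped, at 4.79 to 42.1 CPM in WT and 17.5 to 56.7 CPM in SOMA. Fgf17 and Wnt8a, named after their values were seen, were also lower by mean, with overlap. Wnt3a was above SOMA by mean, at 5.25 against 4.33 CPM, with overlap. No test of WT against SOMA is given for these genes. In WT against CTRL, where Nkx1-2 was higher by 2.996 ± 0.529 on the log2 scale, 0 of these 9 genes were higher and 6 were lower; 34.6% of all genes were lower in that comparison. Nkx1-2 shares exon bases with the antisense gene Gm16764.

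**Figure D2:**
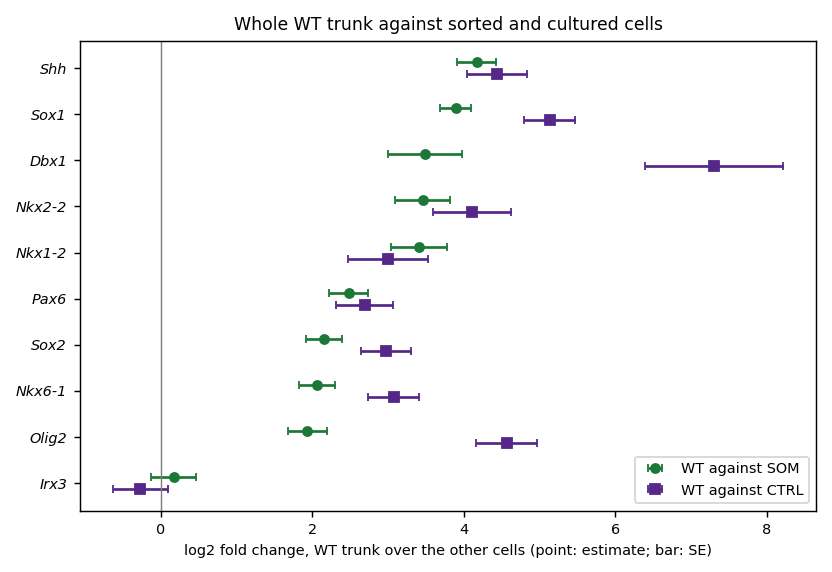
Log2 fold change of each member in WT trunk over the 4 sorted groups at equal weight (circles) and over the 4 CTRL libraries (squares), with bars of 1 SE. Shh has the highest estimate against the sorted cells at 4.17 and Dbx1 the highest against CTRL at 7.30; the bars of Irx3 lie near 0 in both.

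All WT libraries were above all 15 sorted libraries for 6 of the 10 members, and 22.5% of all genes had this separation. All WT libraries were above all CTRL libraries for 9 of the 10 members, and 28.5% of all genes did so. The level order per kilobase also differed between tissues. In WT trunk Sox2 led with 34.9 ± 8.80 CPM per kilobase, followed by Irx3 at 20.2 ± 0.663, Sox1 at 14.7 ± 1.78 and Shh at 12.9 ± 1.503 (SD, n = 3). In SOMB Irx3 led with 21.7 ± 1.95 CPM per kilobase, followed by Sox2 at 10.3 ± 5.50 and Olig2 at 3.26 ± 2.07 (SD, n = 4). Across the 8 groups, the MUT and WT libraries overlapped for every member. The groups were also put in the order of their means for each member, to see which neighbours were separate. For all members but Olig2 and Irx3, the trunk group with the lower mean did not overlap with the group next below it. Further down, neighbours overlapped for these members, except that SOMB stood above SOMA for Dbx1. Neighbours by mean do not show every overlap. For Dbx1, MUT1 at 3.04 CPM and WT2 at 2.68 CPM lay below SOMB2 at 3.09 CPM. For Nkx1-2, WT3 at 7.51 CPM lay below SOMA3 and SOMA4 at 10.4 and 12.1 CPM. For Olig2, SOMD stood above SOMA and DIR above CTRL without overlap, and for Irx3 every neighbouring pair overlapped.

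The other neural genes followed the same direction as the members in most but not all cases. Of 15 other patterning factors 13 were tested, of which 8 were higher and 1 lower in WT against SOM, with a median log2 fold change of 2.04. The dorsal factors Olig3 and Lmx1a differed by 4.24 ± 0.33 and 2.64 ± 0.20, Pax7 by 2.56 ± 0.29, and Sp8 by 2.98 ± 0.15. The lower gene, named after its values were seen, was Lmx1b at -1.81 ± 0.39; 32.1% of all genes were lower. Of 22 genes of neural progenitors and neurons, 17 were higher and 1 lower, with a median of 2.22. Among them were Sox21 at 2.79 ± 0.20, the proneural factor Neurog2 at 3.22 ± 0.25 and Pou3f2 at 3.59 ± 0.32. The lower gene, also named after its values were seen, was Crabp1, a retinoic acid binding protein, at -1.98 ± 0.22.

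Of the 8 receptors and effectors of the Hedgehog pathway 2 were higher and 3 lower in WT against SOM, with a median log2 fold change of -0.0967. These counts are near the shares over all genes, 33.3% higher and 32.1% lower, and show nothing particular to the list. Gli1, a target and effector of the pathway, averaged 46.0 ± 2.33 CPM in WT trunk and 59.5 ± 28.3, 89.3 ± 16.9, 101 ± 15.1 and 92.2 ± 17.9 CPM in SOMA, SOMB, SOMC and SOMD. Gli1 differed by -0.87 ± 0.20, Gli2 by -0.66 ± 0.13 and Smo, the signal transducer, by -0.42 ± 0.11, and Hhip, a Hedgehog-binding antagonist, by 0.74 ± 0.22 (adjusted p of 0.00384 or less for these genes).

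Markers of other tissues moved with the members in the same comparison. In WT against SOM 7 of 7 neural crest genes, 6 of 6 gut endoderm genes, 6 of 6 erythroid genes, 6 of 6 endothelial genes and 4 of 6 surface ectoderm genes were higher, and 0 of these were lower. The median log2 fold changes of these lists ran from 1.21 for endothelium to 5.61 for erythroid cells. Of 11 paraxial mesoderm genes 0 were higher and 2 lower, with a median of 0.0296. Their part in the members' differences was not tested.

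Along the sorted levels the members fell into genes that were higher, lower or not called beyond the presomitic mesoderm. In SOMB against SOMA, 3 of the 9 tested members were higher, namely Olig2, Nkx6-1 and Dbx1, and Nkx1-2 was lower; Nkx2-2 did not pass the filter on low counts. Without that filter, or with all 29 libraries in 1 fit, Nkx2-2 was higher in SOMB as well (log2 fold change 3.19 and 3.26, adjusted p = 0.0129 and 0.0194), on 2 counts in SOMA and 27 in SOMB. Of all 13790 genes 4.13% were higher and 4.55% lower. Nkx1-2 had 1.54, 2.24, 1.99 and 1.62 CPM in SOMB1 to SOMB4, against 5.07, 10.4 and 12.1 CPM in SOMA1, SOMA3 and SOMA4. The groups did not overlap, and the log2 fold change was -2.29 ± 0.41 (adjusted p = 0.00167). The 9 tail bud genes moved in the same direction, 0 higher and 7 lower, with T, the mesoderm factor Brachyury, at -4.19 ± 0.30, Cdx2 at -3.18 ± 0.38 and Wnt3a at -3.20 ± 0.63. Their summed level was 17.7 to 45.9 CPM in SOMB, against 94.2 to 274 CPM in SOMA.

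Nkx6-1 had 5.80, 7.48, 3.77 and 4.41 CPM in SOMB1 to SOMB4, against 2.05, 1.03 and 2.45 CPM in SOMA1, SOMA3 and SOMA4. Its log2 fold change was 1.52 ± 0.28 (adjusted p = 0.00242). Olig2 had 7.79, 15.6, 3.49 and 6.03 CPM in SOMB, against 2.59, 2.79 and 2.07 CPM in SOMA, and its log2 fold change was 1.74 ± 0.44 (adjusted p = 0.0182). Dbx1 had 0.951, 3.09, 0.342 and 0.441 CPM in SOMB, against 0.144, 0.147 and 0 CPM in SOMA, where it had 6 counts in all. Its log2 fold change was 3.55 ± 0.99 (adjusted p = 0.0341). The groups did not overlap in any of these genes. SOMB2 was the highest of the 15 sorted libraries for 6 of the 10 members, Sox1, Sox2, Pax6, Olig2, Nkx6-1 and Dbx1. Without SOMB2 the calls of Olig2 and Dbx1 were lost (adjusted p up to 0.0848 for Olig2 and 0.127 for Dbx1 over all alternatives), as they were without any 1 of the SOMA libraries. Dbx1 was not called either with the nearly identical SOMC and SOMD libraries summed (adjusted p = 0.0572). With the replicate number as a block, 4 members were higher in SOMB: Olig2 (adjusted p = 0.00242), Nkx6-1 (adjusted p = 9.36e-04), Pax6 (adjusted p = 0.017) and Irx3 (adjusted p = 6.34e-04). In that fit 1268 of all 13365 genes tested were higher. SOMA has no replicate 2, so SOMB2 had no partner in the block. Dbx1 did not pass the filter on low counts in that fit.

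**Figure D3:**
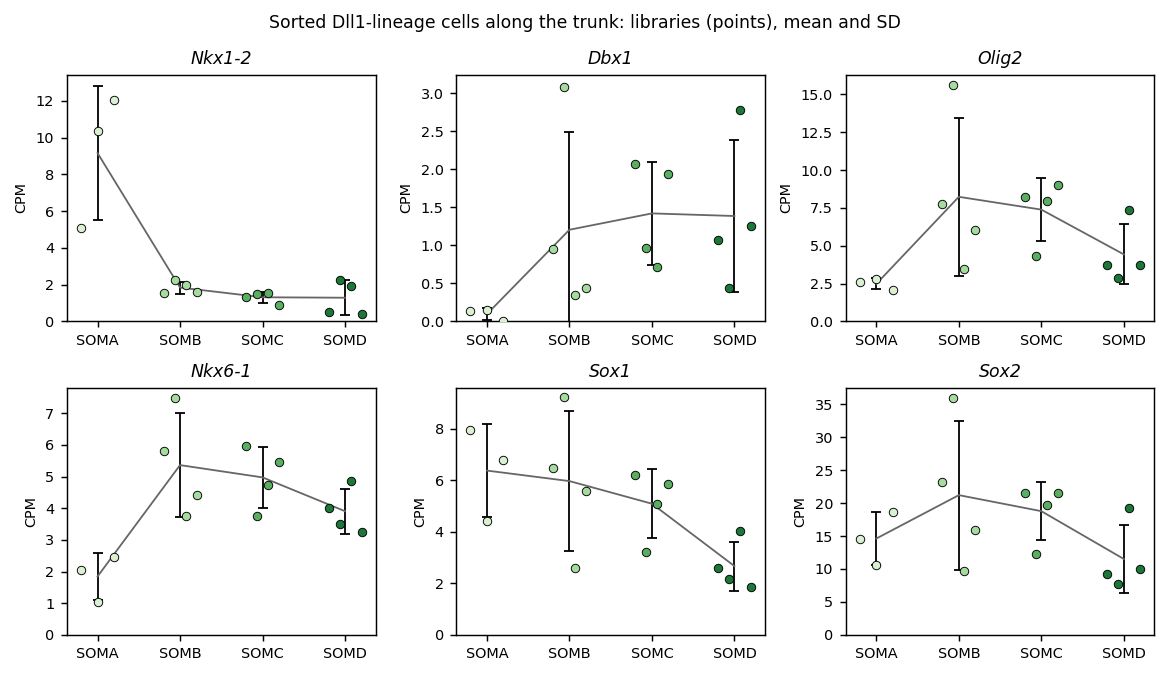
CPM of 6 members in the sorted cells from SOMA to SOMD, on axes that start at 0; points are libraries, bars are the mean ± SD and lines join the means. Nkx1-2 is highest in SOMA at 5.07 to 12.1 CPM, Dbx1, Olig2 and Nkx6-1 are lowest there, and Sox1 is lowest in SOMD by mean.

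Between SOMC and SOMB 0 of 9 tested members were called by edgeR, 0 had an unadjusted p under 0.05, and DESeq2 called 0; 0.827% of all genes were called. Between SOMD and SOMC 0 of 9 were called, 2 had an unadjusted p under 0.05, and DESeq2 called 1; 2.34% of all genes were called. All 9 log2 fold changes of SOMD against SOMC were negative, from -0.97 ± 0.34 in Sox1 to -0.03 ± 0.42 in Shh. With the replicate number as a block, which here paired libraries that deviated together, 4 members were lower in SOMD: Sox1 (adjusted p = 0.00537), Sox2 (adjusted p = 0.00674), Olig2 (adjusted p = 0.00864) and Irx3 (adjusted p = 1.89e-04). In that fit 1100 of all 13243 genes tested were lower. Of the 4 pairs of libraries in the block, 2 are made of the nearly identical libraries. With these summed and the block kept, over 3 pairs, a setting chosen after seeing the data, 668 of 13238 genes were lower. The adjusted p was then 0.0133 for Sox1, 0.0149 for Sox2, 0.0249 for Olig2 and 4.96e-04 for Irx3. With these summed and no block, 0 members were called, with an adjusted p of 0.749 for Sox1, 1.0 for Sox2 and for Olig2, and 0.311 for Irx3. Irx3 had 45.1, 35.0, 35.9 and 42.8 CPM in SOMD1 to SOMD4, against 63.3, 41.1, 51.6 and 62.8 CPM in SOMC1 to SOMC4, lower in each same-numbered pair.

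Over the whole series, SOMD against SOMA, Nkx6-1 and Dbx1 were higher and Sox1 and Nkx1-2 lower; 10.8% of all genes were higher and 8.92% lower. Sox1 had 2.61, 2.18, 4.02 and 1.86 CPM in SOMD1 to SOMD4, against 7.94, 4.41 and 6.78 CPM in SOMA1, SOMA3 and SOMA4. All SOMD libraries were below all SOMA libraries, with a log2 fold change of -1.30 ± 0.36 (adjusted p = 0.0176). Sox2 did not pass the test at -0.35 ± 0.38 (adjusted p = 0.573). Nkx1-2 differed by -2.94 ± 0.44 (adjusted p = 1.37e-04), Nkx6-1 by 1.05 ± 0.29 (adjusted p = 0.0167) and Dbx1 by 3.66 ± 0.996 (adjusted p = 0.0155). Sox1 lost its call without SOMA1, SOMA4 or SOMD4, Nkx6-1 without SOMA3, and Dbx1 without SOMA4 (adjusted p up to 0.0724, 0.0787 and 0.065). Sox1 was not called with the nearly identical libraries summed (adjusted p = 0.0563), nor Nkx6-1 with all 29 libraries in 1 fit or with the replicate block. Nkx2-2, which did not pass the filter on low counts, was higher in SOMD without that filter (log2 fold change 2.58, adjusted p = 0.0415) and missed the threshold with all 29 libraries in 1 fit (adjusted p = 0.0533).

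The other neural genes were mixed along the series. Of 22 genes of neural progenitors and neurons 10 were higher and 3 lower in SOMD against SOMA, with Neurog2 at 1.27 ± 0.43 and Pou3f2 at 1.99 ± 0.57. Of 11 tested other patterning factors 3 were higher and 2 lower, with Pax7, also a factor of the dermomyotome, at 3.13 ± 0.42 and Sp8 at -3.09 ± 0.27. Among the 8 Hedgehog genes 2 were higher and 0 lower: Hhip at 2.17 ± 0.20 and Gli2 at 0.67 ± 0.15.

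In culture without the added molecules, CTRL against SOMA, 3 of 10 members were lower and 0 higher, and 13.4% of all genes were lower. Sox1 had 1.63 to 2.62 CPM in CTRL, against 4.41 to 7.94 CPM in SOMA (log2 fold change -1.67 ± 0.33, adjusted p = 3.70e-04). Olig2 had 0.632, 0.811, 1.01 and 0.862 CPM in CTRL1 to CTRL4, against 2.07 to 2.79 CPM in SOMA (-1.60 ± 0.42, adjusted p = 0.00569). Nkx1-2 had 1.74, 4.90, 2.81 and 2.52 CPM in CTRL, against 5.07 to 12.1 CPM in SOMA (-1.60 ± 0.53, adjusted p = 0.0241). None of these 3 genes overlapped between groups. The call of Nkx1-2 was lost without CTRL1, CTRL3, CTRL4, SOMA3 or SOMA4 (adjusted p up to 0.12). Without CTRL1, the library with low Irx3, Irx3 was called higher in CTRL (adjusted p = 0.0388).

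With LDN and SAG, DIR against CTRL, Olig2 was the 1 member of 8 tested that was called, and it was higher; 0.303% of all genes were higher. Olig2 had 2.45, 1.79, 1.98 and 2.82 CPM in DIR1 to DIR4, so that every DIR library was above every CTRL library. The log2 fold change was 1.44 ± 0.25 (adjusted p = 0.0337), and the DIR mean was close to that of uncultured SOMA, 2.26 ± 0.467 CPM (SD, n = 4) against 2.48 ± 0.372 CPM (SD, n = 3), with no test of that pair. Removing any 1 of CTRL1 to CTRL4, DIR1, DIR2 or DIR4 ended the call (adjusted p up to 0.12), with log2 fold changes of 1.32 to 1.54 over all alternatives. Sox2 had 13.0, 16.8, 27.4 and 18.2 CPM in DIR, against 7.85, 9.76, 9.82 and 9.11 CPM in CTRL. These groups did not overlap either, yet Sox2 missed the threshold at 1.03 ± 0.22 (adjusted p = 0.0835). Sox2 was called higher with DESeq2 (adjusted p = 0.00138), with all 29 libraries in 1 fit (adjusted p = 0.0325) and with the replicate block (adjusted p = 0.0435). These settings called 201 of 14190, 801 of 15223 and 61 of 14190 genes higher. Irx3 had 12.03, 15.7, 35.8 and 51.0 CPM in DIR and overlapped with CTRL through CTRL1, at -1.25 ± 0.53 (adjusted p = 0.31). Irx3 was called lower with all 29 libraries in 1 fit (adjusted p = 0.0228), where 681 of 15223 genes were lower. Nkx2-2 and Dbx1 were not tested, with 6 and 14 counts in DIR and 15 and 6 counts in CTRL. Of the 8 Hedgehog genes 0 were called, as were 0 of 10 tested other patterning factors.

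In MUT against WT trunk 0 of 10 members were called by edgeR, 0 had an unadjusted p under 0.05, and DESeq2 called 0; 0.338% of all 14485 genes were called. Every member overlapped between the groups, and the log2 fold changes ran from -0.71 in Dbx1 to 0.17 in Nkx2-2. Sox1 came nearest to the threshold, with 56.1, 44.7 and 69.3 CPM in MUT1 to MUT3, against 78.6, 61.8 and 73.3 CPM in WT1 to WT3. Its log2 fold change was -0.33 ± 0.15 (adjusted p = 0.338). Shh had 36.4, 38.8 and 37.2 CPM in the MUT libraries, against 41.5, 33.1 and 35.7 CPM in the WT libraries, a log2 fold change of 0.03 ± 0.10 (adjusted p = 0.925). Irx3 had 65.3, 46.3 and 59.9 CPM in MUT and 53.8, 56.4 and 57.3 CPM in WT, at 0.04 ± 0.12 (adjusted p = 0.922). These p-values miss the threshold and do not show that the groups are alike; the SEs were smallest for Shh and Irx3 and largest for Dbx1, at 0.63.

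Nkx1-2 and Dbx1 were wide in WT because WT3 stood apart. Nkx1-2 had 16.2, 16.8 and 13.3 CPM in MUT1 to MUT3, against 33.9, 30.3 and 7.51 CPM in WT1 to WT3 (-0.63 ± 0.43, adjusted p = 0.548). Dbx1 had 3.04, 4.10 and 7.86 CPM in MUT, against 4.21, 2.68 and 17.5 CPM in WT (-0.71 ± 0.63, adjusted p = 0.669). The highest WT library was 4.51 times the lowest for Nkx1-2 and 6.55 times for Dbx1, while no other member exceeded 1.96 times. Tail and neural markers moved with these members: the 9 tail bud genes summed to 59.8, 66.1 and 42.2 CPM in MUT, against 122, 104 and 29.5 CPM in WT. The 22 genes of neural progenitors and neurons summed to 522, 522 and 847 CPM in MUT, against 569, 454 and 977 CPM in WT. Their part in the Nkx1-2 and Dbx1 values was not tested. Without WT3, Nkx1-2 was called lower in MUT, at -1.05 (adjusted p = 0.0126), and Dbx1 was not called.

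**Figure D4:**
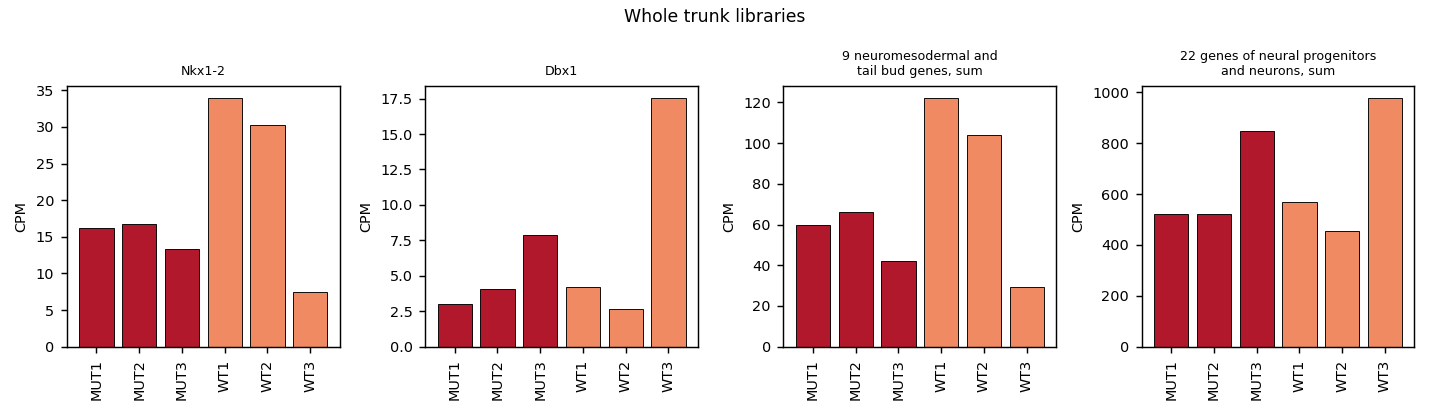
Nkx1-2, Dbx1 and the summed levels of 9 tail bud genes and of 22 neural genes in the 3 MUT and 3 WT trunk libraries, in CPM on axes that start at 0. WT3 has the lowest Nkx1-2 at 7.51 CPM and tail bud sum at 29.5 CPM, and the highest Dbx1 at 17.5 CPM and neural sum at 977 CPM.

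Across the 29 libraries the members other than Irx3 and Nkx1-2 varied together, as a description of libraries that share the split between trunk and the rest. Pearson's r of log2(CPM + 0.5) was 0.944 for Sox1 with Sox2, 0.915 for Olig2 with Nkx6-1 and 0.914 for Olig2 with Dbx1. Irx3 had an r of at most 0.416 with any other member, and Nkx1-2 had 0.26 with Dbx1 and 0.739 with Sox1. Among all genes that averaged at least 1 CPM, the most alike to Sox1 was Sox21 (r = 0.971), to Sox2 Wnt7a (0.948), to Pax6 Scube2 (0.961), and to Olig2 Pou3f2 (0.936). The gene most alike to Nkx6-1 was Neurog2 (0.95), to Dbx1 Neurod4 (0.963), to Nkx2-2 Irx4 (0.944), to Irx3 Msx1 (0.907), and to Nkx1-2 Sema3e (0.922). For Shh they were Ppp2cb and the erythroid factor Klf1 (0.963 each), which share its high level in the trunk libraries.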

How the data were processed

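Libraries were made from Trizol extracts with the TruSeq RNA v2 kit, which does not mark strand, and 11 rounds of PCR, per the labels' protocols. The deposited files hold integer counts of reads per gene made by the authors with TopHat2 2.0.9, Cufflinks, HTSeq 0.6 and DESeq2 1.10 on mm10, per the submitters' processing notes. The sources used here name neither the annotation nor the strand setting. The 5 HTSeq summary lines of each file were removed (reads in no feature were 6.54 to 12.8% of the total, ambiguous reads 0.584 to 1.85%). Groups were taken from the titles.

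Low genes were removed with filterByExpr at a minimum count of 10 and a minimum total of 15. TMM sizes and quasi-likelihood F tests of edgeR 4.0.16 were used (prior count 0.125, R 4.3.3), and a gene was called at a Benjamini-Hochberg adjusted p under 0.05, taken over every gene in the fit. The SE of a log2 fold change was worked back from this test, as its absolute value over the square root of F. It is therefore approximate, above all at low counts. WT against SOM, WT against CTRL and CTRL against SOMA came from 1 fit of 29 libraries, the SOM comparisons from a fit of 15, DIR against CTRL of 8 and MUT against WT of 6. The fits were also run on counts simulated from their own means and dispersions. Such counts follow the model by design and hold no nearly identical libraries, so this was no test of the calls. Exon lengths came from GENCODE M21 and figures from matplotlib 3.10.9. Alternatives were RLE scaling, unscaled totals, no filter, DESeq2 1.42.0, other sets of libraries in the fit, a replicate block, and each library left out in turn.

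The members and gene lists were chosen with earlier results of these data known. All members are named; of each list at most 4 genes per comparison, with the lowest p in WT against SOM or MUT against WT, and others are said to be named after their values were seen. SOMC1 with SOMC4 and SOMD1 with SOMD4 were nearly identical (chi-square per degree of freedom 1.95 and 1.91, against 9.24 or more in other pairs), above sampling noise, so they were kept apart and summed as an alternative. Replicate numbers were taken to pair libraries where the deviations of every same-numbered pair correlated above 0.1, in SOMB against SOMA (0.427 to 0.48, 3 pairs) and SOMD against SOMC (0.408 to 0.523, 4 pairs), from the data and not the labels.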

Additional observations from a re-analysis of the deposited data

Results flagged for a closer look

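Of 43 combinations of a member and a group of 4 libraries with a mean of at least 10 counts, 2 held a library whose gap to its nearest neighbour, as a share of the group's range, passed Dixon's critical value of 0.829; chance gives about 1 in 20. Pax6 in SOMD3 was 13.5 CPM, where the other SOMD libraries had 3.40 to 4.19 CPM (share 0.922). Shh in CTRL2 was 3.25 CPM, where the other CTRL libraries had 1.03 to 1.27 CPM (share 0.89). Pax6 was called in WT against SOM and Shh in WT against CTRL, each under every alternative, including those without the flagged library. Pax6 was not called in the other comparisons of SOMD, nor Shh in the other comparisons of CTRL. No cause was tested.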

How the results depend on the processing

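In WT against SOM and WT against CTRL the same 9 members were called higher under all 32 and all 14 alternatives; of these, 2 alternatives of WT against SOM, which leave out WT3 with SOMB2, or these with SOMC4 and SOMD4, were chosen after seeing the data. Irx3 was called in WT against SOM only with the replicate block (adjusted p = 0.00639). In DIR against CTRL the count of called members was 2 with DESeq2, 3 with all 29 libraries in 1 fit and 0 to 1 with a library left out. Over all genes 43 were higher and 63 lower in the reported fit, 201 and 295 with DESeq2, and 801 and 681 with all 29 libraries. In SOMD against SOMC the count of called members was 1 with DESeq2, 4 with the replicate block, alone or with the nearly identical libraries summed, and 0 to 1 with a library left out. Over all genes 148 were lower in the reported fit, 244 with DESeq2, 1100 with the block, and 668 with the block and summed libraries. With a library left out the count of called members was 0 to 1 in MUT against WT, 2 to 4 in SOMB against SOMA and 2 to 4 in SOMD against SOMA. Where the numbers share no pairing, the replicate block ended the call of Olig2 and gave one to Sox2 in DIR against CTRL, and it ended that of Nkx6-1 and gave one to Olig2 in SOMD against SOMA. No result reversed. Summing the nearly identical libraries ended the calls of Dbx1 in SOMB against SOMA and of Sox1 in SOMD against SOMA. Of 1358 values of single members tested in the reported fits, 1254 kept direction and side of the threshold, 30 lost a call, 21 gained one, and 53 changed sign without being called. Members tested in an alternative only gave 12 more values, of which 3 were called, all of Nkx2-2. Low counts limit Nkx2-2 and Dbx1 outside the trunk.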

Other observations

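Genes outside the neural tube lists also missed the threshold in MUT against WT. Of the 11 paraxial mesoderm genes 0 were called; the nearest was Tcf15, a factor of the epithelial somite, at 0.73 ± 0.13 on the log2 scale (adjusted p = 0.0537). Tcf15 was lower in WT trunk than in the sorted cells, at -1.77 ± 0.40 (adjusted p = 4.40e-04).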
